A study of Homo sapiens and Mus musculus with 36 samples.

Results

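Three-prime expression arrays of HepaRG cells exposed to cyclosporin A were set against arrays of the same cells exposed to nefazodone, both without added bile acids. The comparison held 3 arrays of each drug, chosen by drug and concentration in the sample titles, which made 6 of the 36 arrays of the series and 6 of its 24 HepaRG arrays. HepaRG cells come from a human liver tumour and, once differentiated, form a mixed culture of hepatocyte-like and biliary-like cells, and they were obtained here as cryopreserved differentiated cells. Cyclosporin A was given at 20 µM and nefazodone at 30 µM, each for 72 h from day 7 after seeding. A further 3 arrays held cells with the vehicle alone, and 6 arrays held each drug at the same concentration together with a bile acid mix concentrated 50 times. The series text states that the cell experiments were done in 3 batches of HepaRG cells, but no label ties a replicate number to a batch, so p values may measure the spread between batches or only between cultures. Because the concentrations differed, every difference below is between these treatments and not between the drugs at equal dose. The other HepaRG arrays (atazanavir, the mix alone, atazanavir with the mix) served only to estimate the spread, and mouse liver arrays of bile duct ligation and sham surgery were not used.

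Both drugs can cause cholestatic liver injury, which the series title names as its subject, and they are not structurally related. Cyclosporin A is a cyclic peptide that binds cyclophilins and thereby inhibits the phosphatase calcineurin, and it also inhibits the bile salt export pump. Nefazodone is a phenylpiperazine antidepressant that inhibits the same pump and is known to impair mitochondrial respiration. Hepatocytes make bile acids from cholesterol, take them up from blood and pump them into the canaliculus, while their endoplasmic reticulum (ER) folds large amounts of secreted protein. Misfolded protein in the ER raises chaperones through the factors ATF6 and XBP1, and several stresses raise ATF4 and CHOP through the integrated stress response.

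The treatments gave widely different RNA profiles. Of 19775 genes tested with limma, 7313 (37%) differed at an adjusted p under 0.05, 3481 (17.6%) higher and 3832 (19.4%) lower with cyclosporin A. At least a 2-fold difference was reached by 565 genes (2.86%) that were higher and by 542 (2.74%) that were lower with cyclosporin A. The median over all genes was 0.02 on the log2 scale, where a change of 1 is a 2-fold difference. For the 565 genes, the median difference from the vehicle control was -0.47 with cyclosporin A and -1.85 with nefazodone. For the 542 genes it was 0.07 with cyclosporin A and 1.38 with nefazodone. Both differences from control use the same 3 control arrays, so they are given side by side only. Where a gene had several probe sets the brightest one was used, and the dimmer one farthest from it in drug difference was compared with it. For 23 of the genes named below that dimmer probe set gave the opposite sign. For 22 others it kept the sign but did not pass the threshold. Against control, 8061 genes (40.8%) passed the threshold with cyclosporin A and 9006 (45.5%) with nefazodone.

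The cyclosporin A arrays were the more variable ones, with correlations across genes of 0.9908 to 0.9941 among them, against 0.9949 to 0.9975 among the nefazodone arrays and 0.9716 to 0.9832 between the drugs. The gap between 3′ and 5′ control probe sets, which grows as RNA breaks down, was 0.51 ± 0.01 with cyclosporin A and 0.63 ± 0.02 with nefazodone for GAPDH (log2, SD, n = 3). For ACTB the same gap was 1.55 ± 0.23 and 1.33 ± 0.09. The part of RNA quality in the results was not tested. In hepatocyte genes such as UGT2B15, GSTA1, CYP3A4 and KNG1, described below, replicate 3 of each drug was the highest of its group, and in CYP7A1 that of cyclosporin A alone.

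Of the 12 genes with the largest differences toward higher levels with cyclosporin A, 11 were below control with both drugs and far lower with nefazodone, and several of them belong to hepatocyte metabolism. UGT2B15, which joins glucuronic acid to androgens and drugs, stood at log2 levels of 9.87, 9.50 and 10.70 with cyclosporin A, 4.04, 4.71 and 5.59 with nefazodone and 12.14, 11.97 and 12.17 in control. The drug groups were far apart, and both were below control. The difference was 5.25 ± 0.39 (SE; adjusted p = 9.09e-10), or 37.9-fold. Its probe set can also bind transcripts of similar sequence, as the platform's probe set name marks. So can others, of which only some are noted below.

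CYP2E1, the ethanol-inducible cytochrome P450, was at 8.61, 8.01 and 10.54 with cyclosporin A and at 4.46, 4.61 and 4.47 with nefazodone, against 11.96, 11.30 and 12.01 in control. All 3 nefazodone arrays lay near 4.273, the level that bounds the dimmest 1 in 3 genes, so the measured difference may be smaller than the true one. The difference was 4.54 ± 0.47 (SE; adjusted p = 1.08e-07). SULT2A1, the bile acid and steroid sulfotransferase, was higher by 4.54 ± 0.51 and SLC2A2, the hepatocyte glucose transporter, by 4.21 ± 0.22. FABP1, the liver fatty acid binding protein, was higher by 3.83 ± 0.63 and ACSM2A, a medium-chain acyl-CoA ligase of mitochondria, by 4.22 ± 0.61. In FABP1 and ACSM2A the third nefazodone array was well above the others. CPB2, a plasma carboxypeptidase that slows clot lysis, differed by 3.87 ± 0.49 and SERPINA7, which carries thyroid hormone, by 3.65 ± 0.34. The long non-coding RNA LINC00844 had the largest difference of all (5.37 ± 0.26), and the membrane protein CLRN3 (4.72 ± 0.30) and the potassium channel KCNJ16 (4.57 ± 0.33) were in the same range.

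ARL14, a small GTPase of vesicle traffic, had another pattern. Its levels were 7.69, 7.17 and 6.61 with cyclosporin A, 3.30, 3.41 and 2.74 with nefazodone and 5.62, 6.11 and 5.35 in control. Cyclosporin A lay above control by 1.46 and nefazodone below it at -2.54, and the difference between the drugs was 4.0 ± 0.24 (SE; adjusted p = 3.87e-11).

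The 12 largest differences in the other direction held mostly genes that nefazodone raised over control by more than cyclosporin A did. C2CD4A, a nuclear protein induced by cytokines, was at 6.09, 5.48 and 5.69 with cyclosporin A, 9.77, 9.50 and 9.32 with nefazodone and 3.90, 3.96 and 3.55 in control. IL6, the cytokine that drives the hepatic acute phase response, was at 5.94, 6.31 and 5.07 with cyclosporin A, 9.41, 9.14 and 8.78 with nefazodone and 4.63, 4.85 and 4.96 in control. Neither gene's drug groups overlapped. The differences were -3.77 ± 0.17 (SE; adjusted p = 9.73e-13) and -3.33 ± 0.24 (SE; adjusted p = 4.91e-10), and the nefazodone arrays carried 10.1-fold more IL6 RNA. KCNMB3, a potassium channel subunit (-3.68 ± 0.15), ATP6V0D2, a proton pump subunit (-3.58 ± 0.27), SCG5, a secretory granule chaperone (-3.16 ± 0.18), SPOCD1 (-3.39 ± 0.14) and the antisense transcript ZFHX4-AS1 (-3.70 ± 0.15) were of the same kind, with nefazodone at least 3.69 above control. HDGFL3 was raised over control by 3.01 with cyclosporin A and 6.12 with nefazodone, on a probe set that can bind similar sequences.

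Other genes of this group were low with cyclosporin A instead. FABP4, a fatty acid binding protein of fat cells and macrophages, was at 3.63, 4.04 and 4.34 with cyclosporin A, 7.70, 8.02 and 8.32 with nefazodone and 8.37, 8.95 and 8.41 in control. APOA2, a protein of high density lipoprotein, was at 5.34, 4.78 and 6.94 with cyclosporin A, 9.35, 9.25 and 9.52 with nefazodone and 8.99, 9.15 and 9.82 in control. In both genes cyclosporin A was far below control in every array, while the nefazodone groups did not differ from control past the threshold (-0.56 and 0.05). The differences between the drugs were -4.01 ± 0.27 (SE; adjusted p = 2.03e-10) and -3.69 ± 0.39 (SE; adjusted p = 1.27e-07). KRT14, a basal epithelial keratin (-3.08 ± 0.26), was below control with both drugs and lowest with cyclosporin A. E2F7, a repressor of cell cycle genes (-3.44 ± 0.25), was above control with nefazodone and below it with cyclosporin A.

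**Figure D1:**
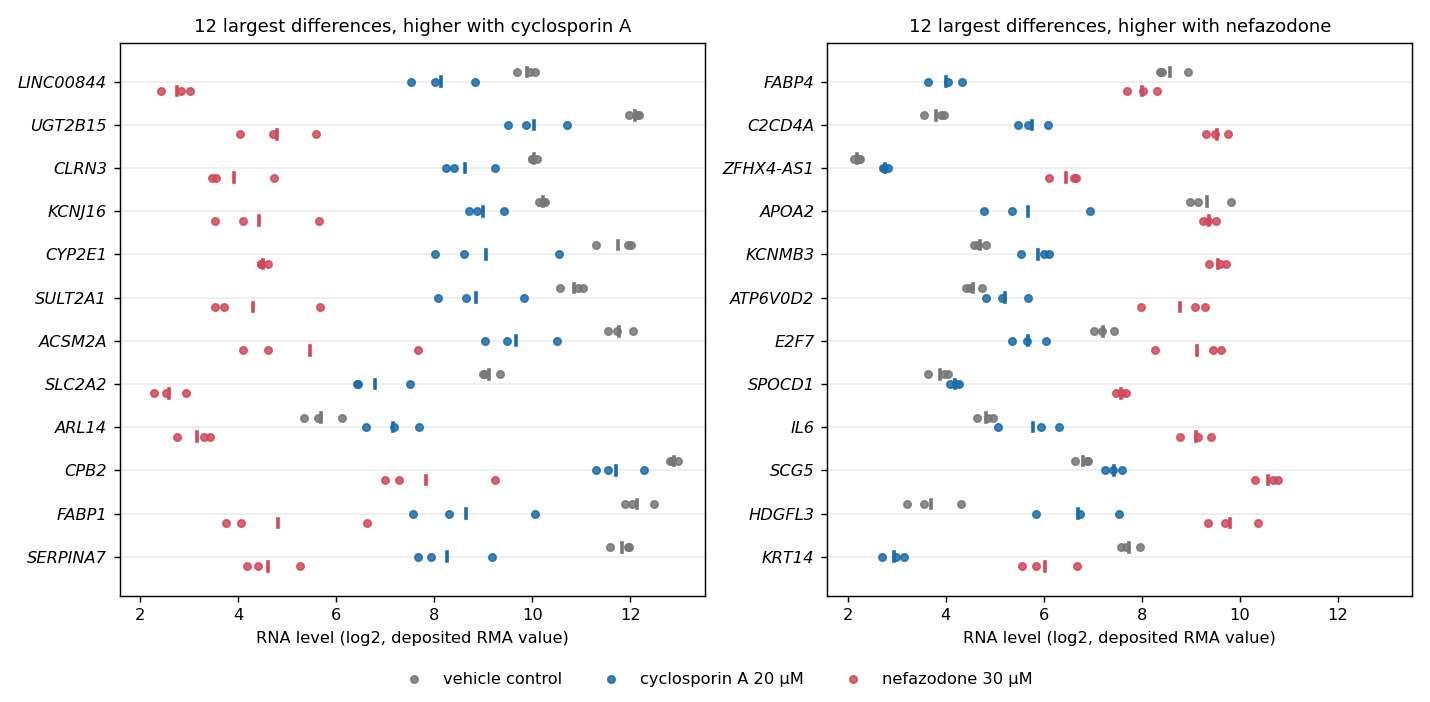
RNA level (log2, as deposited) of the 12 genes with the largest differences in each direction, in 3 arrays each of vehicle control, cyclosporin A and nefazodone; points are arrays and short vertical bars are group means. In the left panel the nefazodone points lie lowest for all 12 genes, and in the right panel the cyclosporin A points lie below the nefazodone points without overlap.

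Genes of bile acid synthesis fell with both drugs, and further with nefazodone. Of 12 members measured, 9 were below control with cyclosporin A (against 18.5% of all genes) and 11 with nefazodone (against 20.6%). Between the drugs, 9 were higher with cyclosporin A than with nefazodone (75%, against 17.6% of all genes) and none was lower (against 19.4%), with a median of 0.92. CYP7A1, the rate-limiting enzyme of the classical route, was at 4.73, 3.36 and 7.24 with cyclosporin A, 2.17, 1.95 and 1.89 with nefazodone and 10.16, 9.49 and 10.36 in control. Nefazodone arrays were at background, and the cyclosporin A arrays spread widely between background and control. The difference was 3.11 ± 0.53 (SE; adjusted p = 6.76e-05). Without the third cyclosporin A array it was 2.05, still past the threshold. CYP8B1, which sets the share of cholic acid, was higher by 2.62 ± 0.35. CYP39A1, an oxysterol hydroxylase of an alternative route and an exception to the fall with cyclosporin A, was at 7.36, 7.33 and 7.74 with cyclosporin A and 7.42, 7.0 and 7.36 in control, against 5.88, 5.66 and 5.49 with nefazodone.

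Of 6 uptake transporters of the blood-facing membrane, 4 were higher with cyclosporin A (66.7%, against 17.6% of all genes) and none lower, with a median of 0.71. SLCO2B1, an organic anion transporter, was higher by 2.14 ± 0.22 and SLC22A9 by 0.82 ± 0.20. SLC10A1, the sodium-dependent bile acid carrier, was at 4.15, 4.21 and 5.04 with cyclosporin A, 3.56, 3.52 and 3.64 with nefazodone and 6.68, 6.46 and 7.22 in control. The difference was 0.89 ± 0.23 (SE; adjusted p = 0.00351), with both drugs well below control.

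Canalicular export genes were called in both directions. Of 9 members, 3 were higher (33.3%, against 17.6% of all genes) and 2 lower with cyclosporin A (22.2%, near the 19.4% of all genes). ABCB4, which moves phosphatidylcholine into bile, was at 6.62, 6.78 and 7.44 with cyclosporin A, 8.35, 8.22 and 7.96 with nefazodone and 7.81, 7.94 and 8.40 in control, so that only cyclosporin A was below control. The difference was -1.23 ± 0.21 (SE; adjusted p = 6.3e-05). ABCB1, the multidrug export pump, was lower with cyclosporin A (-0.84 ± 0.14), and a dimmer probe set of it stood at -0.28 and did not pass. ABCG8, a sterol exporter, was higher by 0.84 ± 0.21. ABCB11, the bile salt export pump that both drugs are known to inhibit, was at 3.92, 3.56 and 4.13 with cyclosporin A, 3.84, 3.93 and 3.72 with nefazodone and 4.08, 3.77 and 4.26 in control, all below 4.273. Its difference was 0.04 ± 0.14 (95% interval -0.26 to 0.34; adjusted p = 0.863). Without the second nefazodone array 1 member was higher in place of 3.

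Differences in export toward blood and in bile acid sensing lay between -0.54 and 0.60. Of 6 basolateral exporters, 3 were higher with cyclosporin A (50%, against 17.6% of all genes), by at most 0.37 (ABCC5, with a dimmer probe set at -0.25), and only 1 of them without the first cyclosporin A array or without the second nefazodone array. SLC51A and SLC51B, the subunits of the organic solute transporter, had differences of 0.02 ± 0.26 (adjusted p = 0.957) and 0.24 ± 0.30 (adjusted p = 0.587). NR0B2, the repressor induced by the bile acid receptor, had 0.20 ± 0.16 (adjusted p = 0.349), and FGF19, the bile acid induced hormone, 0.02 ± 0.10 (adjusted p = 0.893). The group means of SLC51A and FGF19 were below 4.273 in all 3 groups and those of SLC51B near or below it, so these genes were too dim to show whether they differed. Among the 10 sensing genes, RXRA, the partner of the bile acid receptor, was higher (0.60 ± 0.08, with a dimmer probe set at -0.12) and VDR, the vitamin D receptor, lower (-0.54 ± 0.10). Altogether 3 of the 10 were higher (30%, against 17.6% of all genes) and 1 lower (10%, against 19.4%). Only 1 was higher without the third cyclosporin A or the second nefazodone array.

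Drug-metabolising genes did not move as one group. Of 11 conjugation enzymes, 8 were higher with cyclosporin A (72.7%, against 17.6% of all genes) and none lower, with a median of 1.85. GSTA1, a glutathione transferase abundant in hepatocytes, was at 12.65, 12.57 and 13.23 with cyclosporin A, 9.79, 9.78 and 11.55 with nefazodone and 13.52, 13.45 and 13.48 in control, a difference of 2.44 ± 0.31 (SE; adjusted p = 1.84e-06). SULT1A1, a phenol sulfotransferase chosen here after its values were seen, stood at 10.54, 10.58 and 10.32 with cyclosporin A and 10.52, 10.41 and 10.53 in control, against 8.10, 8.05 and 8.39 with nefazodone. Of 10 drug-oxidising P450 genes and their reductase, 4 were higher and 4 lower with cyclosporin A (40% each, against 17.6% and 19.4% of all genes). CYP2C8 was higher by 2.83 ± 0.63 (SE; adjusted p = 0.00103), with the third nefazodone array above the second cyclosporin A array.

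CYP3A4, which oxidises both drugs, went the other way. Its levels were 6.40, 6.12 and 7.15 with cyclosporin A, 7.92, 7.74 and 9.87 with nefazodone and 10.31, 9.91 and 10.30 in control. Nefazodone was above cyclosporin A in every array, with the third nefazodone array near control. The difference was -1.95 ± 0.38 (SE; adjusted p = 0.000254), and -1.27 without the third nefazodone array. A CYP3A4 probe set with a mean level of 2.82 stood at 0.13. The probe set used can bind related CYP3A transcripts, and a probe set of CYP3A5 was also lower with cyclosporin A (-0.99 ± 0.10). CYP2B6, below 4.273 with both drugs, did not differ past the threshold (0.11 ± 0.19; adjusted p = 0.707), and neither did CYP1A1 (-0.16 ± 0.23; adjusted p = 0.652). CYP1B1, a target of the aryl hydrocarbon receptor, was lower with cyclosporin A (-2.39 ± 0.18), as was the receptor AHR itself (-0.77 ± 0.15), while ALDH3A1, another target, was higher (1.46 ± 0.14). Of 8 genes of this receptor 2 were higher (25%, against 17.6% of all genes) and 3 lower (37.5%, against 19.4%). ALDH3A1 was the only higher one without the third cyclosporin A, the first nefazodone or the second nefazodone array.

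Most amino acid breakdown genes and some genes of secreted liver proteins were higher with cyclosporin A, and most were below control with both drugs. With each drug 10 of 12 amino acid breakdown genes and 11 of 12 acute phase genes were below control. So were 18 of 21 complement and coagulation genes with cyclosporin A and 19 with nefazodone. Over all genes 18.5% were below control with cyclosporin A and 20.6% with nefazodone. Of the 12 amino acid breakdown enzymes 9 were higher with cyclosporin A than with nefazodone (75%, against 17.6% of all genes) and none lower (1 lower without the third cyclosporin A or the first nefazodone array), with a median of 1.23. They included AGXT, the glyoxylate transaminase of peroxisomes (2.79 ± 0.32), and DPYS of pyrimidine breakdown (1.80 ± 0.36). Of the 12 acute phase genes 7 were higher (58.3%), led by the fibrinogen chains FGB (1.67 ± 0.28), FGA (1.59 ± 0.33) and FGG (1.13 ± 0.24). That count was 3 without the second nefazodone array and 4 without the first nefazodone or the third cyclosporin A array. Of the 21 complement and coagulation genes 10 were higher (47.6%) and none lower. KNG1, kininogen, was at 9.20, 8.94 and 10.53 with cyclosporin A, 5.78, 5.87 and 7.41 with nefazodone and 12.26, 11.94 and 12.52 in control, and F13B, a subunit of factor XIII, differed by 3.17 ± 0.47. ARG1, the last enzyme of the urea cycle, was higher by 3.02 ± 0.46 (-0.099 on a probe set with a mean level of 1.99) and CPS1, the first, by 1.35 ± 0.32 (0.87 without the third cyclosporin A array), although both lay far below control with cyclosporin A (-4.50 and -4.73). They were the 2 of 8 urea cycle genes that were higher (25%, against 17.6% of all genes), and 1 was lower (12.5%, against 19.4%).

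Albumin RNA did not differ past the threshold on the brightest probe set. ALB was at 13.98, 13.68 and 13.98 with cyclosporin A, 13.73, 13.77 and 13.91 with nefazodone and 14.37, 14.35 and 14.36 in control. The drug groups overlapped, with a difference of 0.07 ± 0.10 (adjusted p = 0.618). These levels lie near the highest value on any array (14.369), where arrays can resolve differences poorly, and a probe set with a mean level of 12.6 stood at 0.25 and did not pass. Another, much dimmer ALB probe set stood 5.16 higher with cyclosporin A, and its transcript was not identified here. Of 11 hepatocyte markers 3 were higher (27.3%, against 17.6% of all genes), 2 lower (APOA2 and CYP3A4; 18.2%, near the 19.4% of all genes) and 6 did not pass. Only 1 was higher without the third cyclosporin A or the second nefazodone array. The mean log2 level of that list was 8.61 to 9.28 with cyclosporin A, 8.97 to 9.49 with nefazodone and 10.4 to 10.8 in control. All 11 members were below control with cyclosporin A (against 18.5% of all genes) and 10 with nefazodone (against 20.6%). Whether the cells kept their hepatocyte identity was not tested. Fewer hepatocyte-like cells and less RNA per cell cannot be told apart in these lysates. Of 9 hepatocyte transcription factors 4 were higher with cyclosporin A (44.4%, against 17.6% of all genes), led by FOXA1 (1.30 ± 0.19) and NR5A2 (1.26 ± 0.22). The 2 that were lower (22.2%, near the 19.4% of all genes) were led by FOXA2 (-0.78 ± 0.11, with a dimmer probe set at 0.05), the only lower one without the second cyclosporin A array.

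Most ER chaperone and ER-associated degradation genes rose over control, and more of them with cyclosporin A. Of 25 members, 23 were above control with cyclosporin A (against 22.2% of all genes) and 16 with nefazodone (against 25%). Between the drugs, 16 were higher with cyclosporin A (64%, against 17.6% of all genes) and 1 was lower, with a median of 0.34. CRELD2, an ER disulfide isomerase partner, was at 10.38, 10.57 and 10.67 with cyclosporin A, 9.07, 9.17 and 8.91 with nefazodone and 9.33, 9.64 and 9.57 in control. The 3 cyclosporin A arrays were above control and the 3 nefazodone arrays below it, and the drugs differed by 1.49 ± 0.09 (SE; adjusted p = 1e-10). PDIA4, a protein disulfide isomerase, lay on either side of control in the same way, with a difference of 1.26 ± 0.09, and SDF2L1, a co-chaperone of the luminal HSP70, was higher by 0.82 ± 0.08.

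HSPA5 encodes that HSP70 protein, BiP, the commonest measure of ER stress. Its levels were 13.55, 13.35 and 13.32 with cyclosporin A, 13.58, 13.63 and 13.49 with nefazodone and 11.99, 12.31 and 12.22 in control. Both drugs were above control by more than 1 log2 unit and overlapped each other. The difference was -0.16 ± 0.08 (95% interval -0.32 to 0.01; adjusted p = 0.129). A dimmer HSPA5 probe set was 0.81 higher with cyclosporin A, so the direction depends on the probe set. XBP1, whose spliced mRNA encodes the factor that induces many of these genes, was the member that was lower with cyclosporin A, with a difference of -0.70 ± 0.10 (SE; adjusted p = 8.79e-06). The probe set was not read for spliced against unspliced XBP1 RNA. Without the first cyclosporin A array 3 members were lower, HSPA5 (-0.23) among them.

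Some promoters of these genes hold a short element, and it is shown because 6 of them carry it. The list holds ER stress genes and the element is named for that response, so its share is a description and not a test. The ER stress response element (ERSE), searched as CCAAT, 9 bases of any kind and CCACG on both strands in the 250 bases before each gene's start in RefSeq (GRCh38.p14), was found in 6 of the 23 list members with a promoter in the table. That is 26.1%, against 0.0806% of all 27305 promoters. The element is printed in capitals within 20 bases on either side, 5′ to 3′ on the gene's strand, and HSP90B1 holds a pair of copies.
CANX (chr5:179698758-179698816, + strand): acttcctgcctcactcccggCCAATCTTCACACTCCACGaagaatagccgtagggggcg
HSPA5 (chr9:125241371-125241429, - strand): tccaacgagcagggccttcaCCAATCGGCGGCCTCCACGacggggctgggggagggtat
HSP90B1, upstream copy (chr12:103930196-103930254, + strand): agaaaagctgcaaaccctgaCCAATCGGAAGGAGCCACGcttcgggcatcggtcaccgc
HSP90B1, downstream copy, reverse (chr12:103930301-103930359, + strand): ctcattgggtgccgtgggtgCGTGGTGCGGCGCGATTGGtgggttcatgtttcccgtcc
CALR, reverse (chr19:12938364-12938422, + strand): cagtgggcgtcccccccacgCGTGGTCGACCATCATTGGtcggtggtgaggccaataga
XBP1 (chr22:28800583-28800641, - strand): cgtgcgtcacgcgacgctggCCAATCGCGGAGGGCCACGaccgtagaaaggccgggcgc
CRELD2, reverse (chr22:49918534-49918592, + strand): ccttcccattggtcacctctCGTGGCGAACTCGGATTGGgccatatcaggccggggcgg

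Of these 6 genes, 4 were higher with cyclosporin A. They were CRELD2, the luminal HSP90 gene HSP90B1 (0.67 ± 0.11), the lectin chaperone CALR (0.59 ± 0.07) and its membrane-bound relative CANX (0.30 ± 0.06). HSPA5 did not pass and XBP1 was lower. Dimmer probe sets stood at 0.012 for XBP1 (mean level 3.37) and at -0.19 for CANX (mean level 3.02). A match is a description of the letters, not of a bound site.

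Of 21 genes of ER to Golgi transport 8 were higher (38.1%, against 17.6% of all genes) and 3 lower with cyclosporin A (14.3%, against 19.4%). The higher ones included the retrieval receptor KDELR3 (1.0 ± 0.10), the translocon partner TRAM1 (0.67 ± 0.06) and the coat subunit SEC13 (0.65 ± 0.06). No gene was lower without the second cyclosporin A or the second nefazodone array, and 1 was without the third nefazodone array.

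The proteasome was the most uniform group. Of 27 subunit genes measured, 26 were higher with cyclosporin A (96.3%, against 17.6% of all genes) and none lower, with a median of 0.77 against 0.02 over all genes. PSMD1, a scaffold of the regulatory particle, was at 10.56, 10.82 and 10.55 with cyclosporin A, 9.49, 9.34 and 9.45 with nefazodone and 10.04, 10.11 and 10.04 in control, a difference of 1.22 ± 0.08 (SE; adjusted p = 6.39e-11). PSMB3 of the catalytic core was at 11.44, 11.63 and 11.20 with cyclosporin A, 10.30, 10.22 and 10.25 with nefazodone and 10.33, 10.33 and 10.37 in control, a difference of 1.17 ± 0.08 (SE; adjusted p = 2.78e-10). In both genes no array of one drug reached the other, and PSMB3 with nefazodone lay at control. PSMA4 was the member that did not pass (-0.05 ± 0.10; adjusted p = 0.732). The mean log2 level of the list was 10.8 to 11.2 in the cyclosporin A arrays, 10.3 in each nefazodone array and 10.1 to 10.2 in control. The core of the antioxidant response element, TGACNNNGC, which NRF2 and NRF1 are known to bind, was found on either strand in 3 of 26 proteasome promoters (11.5%), against 11% of all promoters, a share near the background.

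The integrated stress response went the other way. Of 17 measured genes of its CHOP branch, 12 were lower with cyclosporin A than with nefazodone (70.6%, against 19.4% of all genes) and 2 higher, with a median of -0.56. The list's median lay 1.21 above control with cyclosporin A and 1.92 above it with nefazodone. DDIT3, which encodes CHOP, was at 11.02, 11.35 and 10.75 with cyclosporin A, 11.72, 11.66 and 11.40 with nefazodone and 7.82, 7.89 and 7.50 in control. Each drug was over 3 log2 units above control and the drugs differed by -0.56 ± 0.13 (SE; adjusted p = 0.00178). ATF3, a stress-induced repressor, differed by -1.60 ± 0.16 and TRIB3, a pseudokinase induced by CHOP, by -1.14 ± 0.10. ERN1, the ER sensor IRE1 that splices XBP1, was counted in this list although it belongs to the XBP1 side of the ER stress response. It was lower with cyclosporin A (-1.5 ± 0.10) and above control with both drugs (1.20 with cyclosporin A, 2.70 with nefazodone).

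The secreted stress hormones of this branch followed the same order. GDF15 was at 11.96, 11.91 and 11.47 with cyclosporin A, 13.33, 13.36 and 12.98 with nefazodone and 7.89, 8.05 and 7.82 in control, a difference of -1.44 ± 0.15 (SE; adjusted p = 9.7e-08). FGF21 was at 4.09, 3.77 and 4.0 with cyclosporin A, 5.90, 5.72 and 5.48 with nefazodone and 3.23, 3.58 and 3.30 in control, a difference of -1.75 ± 0.13 (SE; adjusted p = 8.21e-10). Both were above control in every drug array and highest with nefazodone. The 2 members higher with cyclosporin A were the factors ATF4 (0.19 ± 0.06) and ATF5 (0.27 ± 0.10), neither of which passed without the second nefazodone array. ATF5 passed without the first cyclosporin A array but not without any of the others.

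Amino acid supply genes driven by ATF4 were less separated. Of 18, 3 were higher (16.7%, near the 17.6% of all genes) and 5 lower with cyclosporin A (27.8%, against 19.4%). The lower ones included the neutral amino acid carrier SLC1A4 (-0.91 ± 0.09, with a dimmer probe set at 0.32). ASNS, asparagine synthetase, was raised over control by 2.61 with cyclosporin A and 2.72 with nefazodone and did not differ past the threshold between them (-0.12 ± 0.08; adjusted p = 0.246). Of 17 cytosolic tRNA synthetases, which charge tRNAs with amino acids, 11 were lower with cyclosporin A (64.7%, against 19.4% of all genes). In that list 1 was higher (5.88%, against 17.6%), and the median was -0.27. YARS1 for tyrosine (-0.56 ± 0.06), LARS1 for leucine (-0.52 ± 0.08) and NARS1 for asparagine (-0.46 ± 0.06) led. IARS1 for isoleucine was the one higher (0.30 ± 0.09), a call lost without the second nefazodone array. Another LARS1 probe set stood at 0.66 where the one used stood at -0.52. The exact element TGATGNAAT, searched for ATF4 and CHOP binding on both strands, was found in 1 of 16 promoters of the stress response list. It was found in none of the amino acid and tRNA synthetase promoters, and in 0.916% of all promoters.

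**Figure D2:**
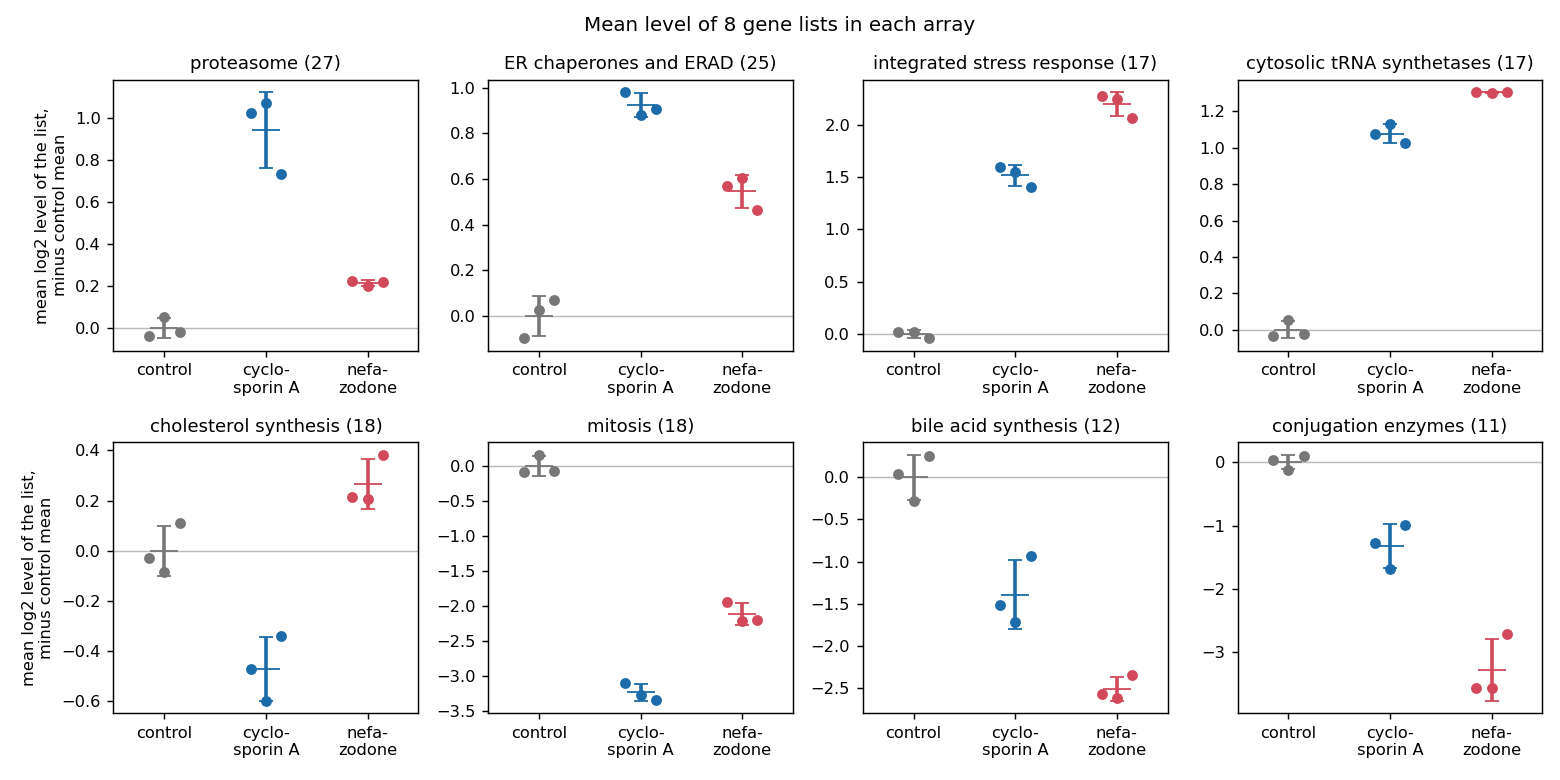
Mean log2 level of 8 gene lists in each array minus the control mean, for 3 arrays each of control, cyclosporin A and nefazodone; points are arrays, and the bars give mean ± SD. Proteasome and ER chaperone means lie highest with cyclosporin A, integrated stress response and tRNA synthetase means highest with nefazodone, and cholesterol synthesis means lie on either side of control.

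Most cholesterol synthesis genes were below control with cyclosporin A, while with nefazodone more were above it than below. Of 18 members, 14 were below control and 1 above with cyclosporin A, and 9 were above and 5 below with nefazodone. Over all genes 18.5% were below and 22.2% above control with cyclosporin A, and 25% were above and 20.6% below with nefazodone. Between the drugs, 13 were lower with cyclosporin A (72.2%, against 19.4% of all genes) and 1 was higher, PMVK (0.41 ± 0.09), with a median of -0.79. The list's median lay at -0.42 from control with cyclosporin A and at 0.26 with nefazodone. HMGCS1, which makes the precursor of mevalonate, was at 9.23, 8.66 and 9.23 with cyclosporin A, 10.88, 10.74 and 11.05 with nefazodone and 10.03, 9.96 and 10.32 in control. FDPS, which makes farnesyl diphosphate, was at 10.64, 10.54 and 10.62 with cyclosporin A, 12.21, 12.28 and 12.32 with nefazodone and 11.20, 11.27 and 11.50 in control. In both genes all control arrays lay between the drug groups. The differences were -1.85 ± 0.15 (SE; adjusted p = 4.13e-09) and -1.67 ± 0.10 (SE; adjusted p = 3.56e-11). Among 11 fatty acid synthesis genes 4 were lower (36.4%, against 19.4% of all genes) and 2 higher (18.2%, near the 17.6% of all genes). The lower ones included the elongase ELOVL6 (-2.14 ± 0.20), FASN (-0.87 ± 0.10) and ACLY (-0.89 ± 0.11). Only 1 was higher without the second cyclosporin A, the third cyclosporin A or the second nefazodone array.

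Lipid storage and oxidation genes were mixed, with a few large differences. PLIN2, the main coat protein of hepatocyte lipid droplets, was at 10.64, 10.68 and 10.69 with cyclosporin A, 12.97, 12.92 and 12.66 with nefazodone and 10.70, 10.70 and 11.02 in control. Only the nefazodone arrays were raised, and the difference was -2.18 ± 0.09 (SE; adjusted p = 6.15e-13), or 4.53-fold more with nefazodone. A PLIN2 probe set with a mean level of 2.76 stood at 0.057. Of 15 lipid droplet genes 5 were lower (33.3%, against 19.4% of all genes) and 2 higher with cyclosporin A (13.3%, against 17.6%). The 2 higher ones were CIDEC (1.03 ± 0.17) and CIDEB (1.41 ± 0.23), which act in droplet fusion and lipoprotein loading. Of 19 fatty acid oxidation genes 7 were lower (36.8%, against 19.4% of all genes) and 5 higher (26.3%, against 17.6%). PDK4, which turns pyruvate away from oxidation, was lower (-1.71 ± 0.22) and ACADSB, a short branched-chain dehydrogenase, higher (1.55 ± 0.18, with a dimmer probe set at -0.062).

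Nuclear genes of the respiratory chain differed by small amounts. Of 33 subunits of complexes II to V, 14 were lower with cyclosporin A (42.4%, against 19.4% of all genes) and 3 higher, with a median of -0.15. UQCRC1 of complex III had a difference of -0.72 ± 0.10 and ATP5F1B, the catalytic subunit of ATP synthase, one of -0.65 ± 0.09. Without the third nefazodone array 9 were lower and 5 higher. Of 32 complex I subunits 10 were lower (31.2%, against 19.4% of all genes) and 8 higher (25%, against 17.6%), with a median of -0.07. Examples are NDUFA6 (-0.69 ± 0.07, with a dimmer probe set at 0.083) and NDUFB3 (0.71 ± 0.08). The 8 higher ones became 5 without the first or the second nefazodone array.

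Inflammatory genes split by kind. IL6, the prostaglandin synthase PTGS2 (-2.77 ± 0.23) and the IL6-family cytokine LIF (-0.80 ± 0.13) were the 3 of 17 cytokine genes that were lower with cyclosporin A. At 17.6% the share of lower ones was near the 19.4% of all genes. The 6 that were higher (35.3%, against 17.6% of all genes) were all chemokines. CXCL8, the neutrophil attractant IL-8, was at 8.39, 7.61 and 7.98 with cyclosporin A, 7.17, 6.82 and 5.55 with nefazodone and 7.97, 8.16 and 8.36 in control, a difference of 1.48 ± 0.28 (SE; adjusted p = 0.000177). CCL2, which attracts monocytes, was at 6.80, 7.01 and 6.53 with cyclosporin A, 4.63, 4.73 and 4.23 with nefazodone and 6.14, 6.50 and 6.35 in control, a difference of 2.25 ± 0.15 (SE; adjusted p = 1.45e-10). CXCL10, an interferon-induced attractant of T cells, was higher by 2.29 ± 0.36. For CXCL8 and CCL2 every nefazodone array was below every control array, while the cyclosporin A arrays overlapped control for CXCL8 and lay above it for CCL2. Of 12 NF-κB pathway and adhesion genes 4 were higher (33.3%, against 17.6% of all genes), among them the inhibitors NFKBIA (1.27 ± 0.12) and TNFAIP3 (0.91 ± 0.13). The inhibitor NFKBIE was the 1 that was lower (-0.40 ± 0.12), a share of 8.33% against 19.4%. No gene was lower without the third cyclosporin A or the first nefazodone array, and 2 were without the first cyclosporin A or the third nefazodone array.

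Most cell division genes were below control with both drugs, and mitosis genes were lowest with cyclosporin A. Of 18 mitosis genes 17 were lower with cyclosporin A than with nefazodone (94.4%, against 19.4% of all genes) and none was higher, with a median of -1.23. Their median difference from control was -3.38 with cyclosporin A and -2.17 with nefazodone. BUB1, a spindle checkpoint kinase, was at 4.68, 4.40 and 3.60 with cyclosporin A, 6.23, 5.85 and 5.93 with nefazodone and 7.74, 8.11 and 7.75 in control. CCNB1, cyclin B, was at 6.53, 6.22 and 6.38 with cyclosporin A, 8.15, 7.85 and 7.90 with nefazodone and 9.42, 9.74 and 9.44 in control. Each drug group stood clear of the other and of control, although BUB1 probe sets with mean levels of 2.42 and 2.11 stood at 0.060 and 0.12. The differences were -1.77 ± 0.22 (SE; adjusted p = 1.06e-06) and -1.59 ± 0.15 (SE; adjusted p = 3.27e-08). CCNB2 did not pass (0.08 ± 0.10) and its levels lay close to control with both drugs, unlike the other members. Of 17 DNA replication and cell cycle entry genes 7 were lower (41.2%, against 19.4% of all genes), led by the cyclin CCNE2 (-1.15 ± 0.15). In that list 2 were higher (11.8%, against 17.6%), and 1 without the second array of either drug. CDC6 (-0.99 ± 0.19) was an exception to the fall, at 0.006 from control with cyclosporin A and 1.0 above it with nefazodone.

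Growth arrest genes were lower with cyclosporin A than with nefazodone. The list's median lay 0.165 above control with cyclosporin A and 0.482 above it with nefazodone. Of 10 p53 target genes 7 were lower (70%, against 19.4% of all genes) and none higher, with a median of -0.58. GADD45A, a stress sensor (-1.16 ± 0.13), and TNFRSF10B, a death receptor also induced by CHOP (-0.69 ± 0.09), led. Both were above control with each drug. Among 15 cell death genes 6 were lower (40%, against 19.4% of all genes) and 3 higher (20%, against 17.6%). PMAIP1, the NOXA protein, was at 9.63, 9.44 and 8.91 with cyclosporin A, 10.64, 10.75 and 10.74 with nefazodone and 8.06, 8.35 and 8.04 in control, a difference of -1.38 ± 0.13 (SE; adjusted p = 3.39e-08). MLKL, the executor of necroptosis, was higher with cyclosporin A by 0.96 ± 0.12.

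Genes of the direct target of cyclosporin A differed by -0.97 to 0.33. Of 18 cyclophilin, calcineurin and NFAT genes 6 were lower (33.3%, against 19.4% of all genes) and 2 higher (11.1%, against 17.6%). The largest difference was that of PPP3CC, a catalytic calcineurin subunit, at -0.97 ± 0.13 (dimmer probe sets at 0.099 and 0.17). The 6 became 3 without the second nefazodone array. PPIB, the cyclophilin of the ER lumen, was higher by 0.21 ± 0.07 (adjusted p = 0.0149; 0.0717 without the first cyclosporin A array, which left 1 member higher). RCAN1, a calcineurin inhibitor and target, was lower (-0.45 ± 0.10), with another probe set at 0.12.

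Other stress groups moved in both directions. Of 20 autophagy and lysosome genes 8 were lower (40%, against 19.4% of all genes) and 3 higher (15%, against 17.6%). The higher ones were led by the lysosomal galactosidase GLA (1.47 ± 0.14). MAP1LC3B (-0.88 ± 0.07) and WIPI1 (-1.01 ± 0.12) of the autophagosome were among the lower ones, though both were above control with each drug. Of 17 NRF2 targets 4 were lower (23.5%) and 2 higher (11.8%), near the 19.4% and 17.6% of all genes. GCLM, which limits glutathione synthesis, was lower (-1.04 ± 0.14), and HMOX1, heme oxygenase, was higher by 0.45 ± 0.14 (adjusted p = 0.0151), a call lost without the second cyclosporin A or the first nefazodone array. Without the first cyclosporin A array 7 NRF2 targets were lower. VEGFA, a growth factor induced by low oxygen and by ATF4, was above control with both drugs and lower with cyclosporin A (-0.98 ± 0.10). It led the 4 of 8 hypoxia genes that were lower (50%, against 19.4% of all genes), while 3 were higher (37.5%, against 17.6%). The 4 became 2 without the third cyclosporin A array, and without the first or the second nefazodone array.

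Further lists differed in few members. Of 11 plasma carrier proteins 4 were higher with cyclosporin A (36.4%, against 17.6% of all genes) and none lower (against 19.4%). They were led after SERPINA7 by APOH, beta-2-glycoprotein (1.88 ± 0.24), and TTR, transthyretin (0.80 ± 0.16). Of 11 apolipoproteins 3 were higher (27.3%, against 17.6% of all genes), led by APOB of low density lipoprotein (1.58 ± 0.26) and APOC3 (1.15 ± 0.36). Only APOA2 was lower (9.09%, against 19.4%). The call for APOC3 was lost without the third cyclosporin A, the first nefazodone or the second nefazodone array. Counts were 1 higher and 2 lower without the third cyclosporin A or the second nefazodone array, and 5 higher and 2 lower without the second cyclosporin A array. Of 19 glucose metabolism genes 4 were higher and 4 lower (21.1% each), near the shares of all genes (17.6% and 19.4%). HK2, the inducible hexokinase, was lower (-1.13 ± 0.13, with a dimmer probe set at 0.071) and PFKP, a phosphofructokinase, higher (0.67 ± 0.13), and without the second nefazodone array 2 were lower.

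Protein folding and metal-binding genes outside the ER were split as well. Of 17 cytosolic and mitochondrial chaperones 4 were higher (23.5%, against 17.6% of all genes) and 5 lower (29.4%, against 19.4%). The small heat shock proteins HSPB8 (0.95 ± 0.12) and CRYAB (0.88 ± 0.12) stood on the higher side and HSPH1, an HSP70 exchange factor (-0.71 ± 0.16), on the lower. Of 11 metallothionein and zinc genes 6 were lower (54.5%, against 19.4% of all genes) and 2 higher (18.2%, near the 17.6% of all genes). Only 2 were lower without the third cyclosporin A array. SLC30A10, a manganese exporter, was higher (2.15 ± 0.25), and the zinc exporter SLC30A1 lower (-0.75 ± 0.08, with a dimmer probe set at 0.016), like MT2A (-0.54 ± 0.11, on a probe set that can bind other metallothioneins).

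Growth and matrix genes followed no single direction. IER3, a stress-induced survival factor (-1.40 ± 0.17), and KLF4, an epithelial transcription factor (-0.98 ± 0.12), led the lower immediate early genes, though both were above control with each drug. Of 13 such genes 6 were lower (46.2%, against 19.4% of all genes) and 1 higher (7.69%, against 17.6%). The 6 became 3 without the third cyclosporin A array, and without the first or the second nefazodone array, and none was higher without the third nefazodone array. Of 26 matrix genes 7 were lower (26.9%, against 19.4% of all genes), led by the stromelysin MMP10 (-2.18 ± 0.29). The 3 that were higher (11.5%, against 17.6%) were led by CCN2, a matricellular target of YAP and TGF-β (1.76 ± 0.17), and the collagen COL5A2 (1.51 ± 0.15). Of 10 junction genes 4 were higher (40%, against 17.6% of all genes) and 1 lower (10%, against 19.4%). The higher ones were led by GJB1, the main connexin of hepatocytes (1.92 ± 0.22), the cadherin CDH2 (1.61 ± 0.10) and the tight junction protein CLDN1 (1.04 ± 0.07). OCLN, occludin, was lower (-1.0 ± 0.08), and a further gene was lower without the third cyclosporin A array.

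Markers of other liver cell types passed at shares near or below those of all genes (17.6% higher, 19.4% lower), apart from 27.3% lower in the biliary list. Of 11 biliary markers 2 were higher, CD24 (1.84 ± 0.13, on a probe set that can bind similar sequences) among them, and 3 lower with cyclosporin A, such as SPP1, osteopontin (-1.63 ± 0.18), and the mean level of that list was 6.17 to 6.30 with cyclosporin A and 6.29 to 6.33 with nefazodone. CD24 was the only higher one without the third cyclosporin A or any nefazodone array. KRT19, a biliary keratin, was lower (-0.56 ± 0.12), while another probe set stood at 0.15. Of 11 macrophage markers 2 were higher, of which ADGRE1 had 1.22 ± 0.15, and their mean level was 3.94 to 4.17 with cyclosporin A and 3.79 to 3.88 with nefazodone, all below 4.273. Of those 11 markers 4 were higher without the first cyclosporin A array and 1 without the first or second nefazodone array. Of 10 endothelial markers 1 was higher, KDR (2.14 ± 0.26), with list means of 4.03 to 4.21 and 3.86 to 3.93. Of 14 stellate cell and fibroblast markers 2 were higher and none lower, with list means of 5.09 to 5.39 and 5.14 to 5.32. Those counts ran from 1 to 2 higher and 0 to 2 lower when single arrays were left out, with 1 higher without the second cyclosporin A or the first or second nefazodone array and 2 lower without the third cyclosporin A or the second nefazodone array. The part of other cell types in the results was not tested.

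The same drugs were compared in cells that also received the bile acid mix, on 6 arrays that the comparison above did not use. There 8089 genes (40.9%) passed, 3660 (18.5%) higher and 4429 (22.4%) lower with cyclosporin A, and the differences with and without the mix correlated at 0.56 across genes (Pearson, a description, since genes are not independent). Of the 542 genes at least 2-fold lower with cyclosporin A without the mix, 496 (91.5%) also passed and were lower with it, and 1 passed in the opposite direction. Their median moved from -1.28 to -1.17. Of the 565 genes at least 2-fold higher, 292 (51.7%) also passed and were higher with the mix and 78 passed in the opposite direction. Their median moved from 1.39 to 0.43. Both sets were chosen on the arrays without the mix, so a median nearer 0 with the mix follows in part from the choice. The difference between the drugs itself differed with the mix in 4438 genes (22.4%), 2082 (10.5%) toward higher and 2356 (11.9%) toward lower values with cyclosporin A. With each array centred on its median the balance turned, to 3482 and 1765.

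UGT2B15 and CYP7A1 lost their difference with the mix, with the levels of cyclosporin A cells falling to those of nefazodone cells. UGT2B15 was at 5.13, 4.71 and 6.09 with cyclosporin A and the mix and at 4.85, 4.98 and 6.12 with nefazodone and the mix, a difference of -0.004. CYP7A1 was at 1.91, 1.96 and 2.07 and 1.91, 1.85 and 2.06, all at background. The interaction, the difference with the mix minus that without, was -5.25 ± 0.55 (SE; adjusted p = 6.29e-07) for UGT2B15 and -3.07 ± 0.76 (SE; adjusted p = 0.00472) for CYP7A1. All 12 bile acid synthesis genes together had a median of -0.02 with the mix, with 2 higher and 2 lower (against 18.5% and 22.4% of all genes). Acute phase and coagulation genes crossed over. With the mix none of 12 and none of 21 was higher (against 18.5% of all genes), and 9 and 9 were lower (against 22.4%). ALB was then lower with cyclosporin A, at -1.10 (adjusted p = 6.45e-09), and KNG1 at -2.94 (adjusted p = 1.84e-05).

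Chemokines followed more than one course. With the mix 1 of the 17 cytokine genes was higher with cyclosporin A (against 18.5% of all genes) and 7 were lower (against 22.4%). CXCL8 was at 9.11, 8.96 and 9.09 with cyclosporin A and the mix and at 11.30, 10.84 and 11.12 with nefazodone and the mix. Both groups were above their levels without the mix, and nefazodone had become the higher one, with an interaction of -3.51 ± 0.39 (SE; adjusted p = 1.34e-06). CCL2 was then lower with cyclosporin A (-0.57; adjusted p = 0.00305), and CXCL10 did not pass (-0.67; adjusted p = 0.15). IL6 kept its direction (-2.58 with the mix; adjusted p = 1.01e-08).

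Proteasome genes were further apart with the mix. All 27 were higher with cyclosporin A (against 18.5% of all genes), with a median of 1.32. The interaction was positive and past the threshold in 26 of them (against 10.5% of all genes). PSMB3 differed by 2.02 with the mix against 1.17 without it. ER chaperones moved the other way, with a median of 0.02 with the mix. Of the 25, 8 were then higher (against 18.5% of all genes) and 6 lower, a share near the 22.4% of all genes. CRELD2 was at 9.94, 10.05 and 10.16 and 10.09, 10.02 and 9.97, so that its groups overlapped. Mitosis genes were still lower in 17 of 18 (against 22.4% of all genes), with a median of -1.52. PLIN2 differed by -2.27, and DDIT3 changed direction and was higher with cyclosporin A by 0.39 (adjusted p = 0.0203).

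The 4 genes with the smallest interaction p in each direction were of mixed function. CD24 changed by -3.23 ± 0.18 (SE; adjusted p = 3.3e-10), KDELR3 by -2.48 ± 0.14 (SE; adjusted p = 3.3e-10), the amino acid exchanger SLC7A7 by -3.45 ± 0.20 (SE; adjusted p = 3.3e-10) and HPD, an enzyme of tyrosine breakdown, by -2.34 ± 0.14 (SE; adjusted p = 4.79e-10). Each was higher with cyclosporin A without the mix and lower with it. In the other direction stood PAX8-AS1 (2.62), the ubiquitin ligase subunit FBXO30 (1.43), the matrix protein ECM1 (1.98) and NR2F1-AS1 (1.5). ECM1 was at 6.66, 6.65 and 6.36 with cyclosporin A and 8.49, 8.67 and 9.19 with nefazodone without the mix, and at 6.63, 6.58 and 6.64 and 6.82, 6.96 and 6.80 with it.

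**Figure D3:**
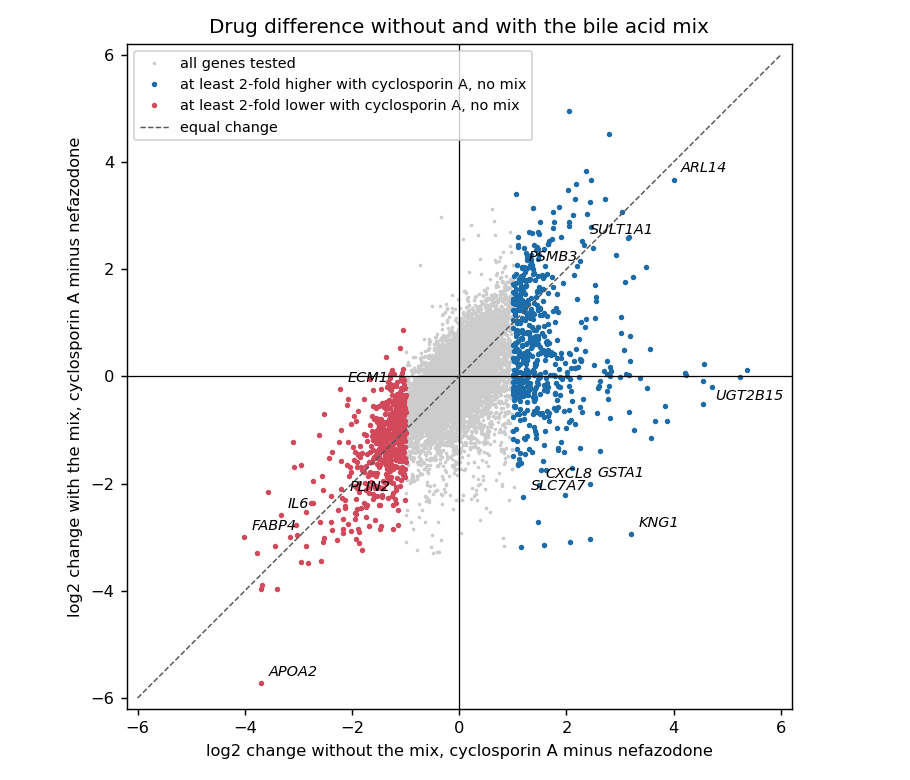
Difference between cyclosporin A and nefazodone (log2) with the bile acid mix against the difference without it, for all genes tested; blue and red mark genes at least 2-fold higher or lower with cyclosporin A without the mix, and the dashed line marks equal change. Red points lie mostly along the line, while many blue points lie near or below 0 on the vertical axis.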

How the data were processed

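RNA from HepaRG cells was hybridised to human 3′ expression arrays, 1 array per sample. Per the submitters' processing notes the authors normalized the arrays with RMA, whose version is not given in the sources used here, and deposited log2 expression values of 54675 probe sets. These values run from 1.468 to 14.369, and an array holds no read depth, so the number of arrays limits the precision. Samples were grouped by drug, concentration and mix as the titles give them.

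Probe sets were named through the platform annotation: 41091 carried 1 gene symbol, 1801 several and 11721 none, and 62 were controls. Only those with 1 symbol were used. The brightest probe set stood for each of 19775 genes, of which 10523 had several. All 24 HepaRG arrays entered 1 fit of group means with limma 3.58.1 in R 4.3.3 (lmFit, eBayes, 16 residual degrees of freedom), with Benjamini-Hochberg adjustment over all genes and a threshold of 0.05. The procedure was tested on simulated data. Standard errors and 95% intervals come from this fit.

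Named are the 12 largest differences in each direction with groups that do not overlap, up to 3 members of each of 48 gene lists with the largest change past the threshold, 24 key genes (23 measured) and the 4 smallest interaction p-values in each direction. ATF4, ATF5, CALR, CANX, CCL2, CCNB2, CIDEC, CYP3A5, HSP90B1, IARS1, LIF, NFKBIE, OCLN, PMVK, PSMA4, SULT1A1 and XBP1 were added after their values were seen. The comparison, its members and the lists were chosen with earlier results of these data known. A list is described by its counts beside those of all genes, with no test of the list.

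Promoter motifs were searched in RefSeq sequences. Alternatives were a fit of the compared arrays alone, a replicate block, quantile normalization, centring, a filter on dim genes (below the 33rd percentile), the mean of a gene's probe sets, every probe set on its own, eBayes with trend, and leaving out each array. Deviations from the group means of arrays with the same replicate number correlated at -0.08, -0.05 and 0.25 over all genes. In the complement and coagulation and the plasma carrier lists, replicate 3 had the highest and replicate 2 the lowest mean in every HepaRG group. The complement and coagulation mean was 8.72, 8.60 and 9.1 in control, 6.91, 6.83 and 7.57 with cyclosporin A and 6.10, 5.99 and 6.60 with nefazodone. With the mix it was 5.44, 5.17 and 5.66 with cyclosporin A and 6.14, 6.08 and 6.50 with nefazodone. Whether the numbers mark batches was not tested, and the arrays were not paired. A search for the motif TGACNNNGC in proteasome promoters was added after the data were seen.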

Additional observations from a re-analysis of the deposited data

Results flagged for a closer look

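In 4438 of 19775 genes the difference between the drugs was not the same with the bile acid mix as without it, by the interaction term of the fit (limma, adjusted p under 0.05), as given above. Of 55 genes tested singly, namely the 24 with the largest drug differences, 23 key genes and the 8 with the smallest interaction p-values, some in more than one of these groups, 36 passed, 26 with a negative and 10 with a positive interaction. That count follows in part from the choice of genes: the 8 were picked for their interaction, and the difference without the mix that picked the 24 enters the interaction with its sign turned. The interaction is the log2 difference between cyclosporin A and nefazodone with the mix minus that without it, over 3 arrays a group.

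Among these 55, the most negative values belonged to genes that passed as higher with cyclosporin A only in cells without the mix. They were LINC00844 (-5.24), UGT2B15 (-5.25), CLRN3 (-4.91), KCNJ16 (-4.34), CYP2E1 (-5.05), SULT2A1 (-4.63), ACSM2A (-4.20), SLC2A2 (-4.14), CPB2 (-4.71), FABP1 (-4.39) and SERPINA7 (-4.47). Outside the 55, KNG1 (-6.14), GSTA1 (-4.45) and APOC3 (-4.33) were in or beyond this range, and with the mix they were lower with cyclosporin A. With the mix both drug means lay below 4.273 in LINC00844 (2.72 and 2.60), CLRN3, KCNJ16, SULT2A1, ACSM2A, SLC2A2, FABP1 and SERPINA7. These genes were too dim there to show whether the drugs differed. Within the 55, interactions between -4 and -2 were those of APOA2 (-2.04), CYP7A1 (-3.07), SLC51A (-2.95), SLC51B (-2.32), CXCL8 (-3.51), CD24 (-3.23), KDELR3 (-2.48), SLC7A7 (-3.45) and HPD (-2.34). Smaller negative values were those of SPOCD1 (-0.58), FGF19 (-0.43), FGF21 (-0.88), ALB (-1.17), KRT19 (-1.58) and PPIB (-0.29).

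Positive interactions were measured for ATP6V0D2 (1.43), HDGFL3 (1.89), KRT14 (1.40), DDIT3 (0.95), ATF3 (1.05), HMOX1 (1.06), PAX8-AS1 (2.62), FBXO30 (1.43), ECM1 (1.98) and NR2F1-AS1 (1.5).

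SLC51A and SLC51B, the subunits of the bile acid exporter of the blood-facing membrane, did not differ past the threshold between the drugs without the mix. With the mix nefazodone cells held more of both, at -2.93 ± 0.26 (SE; adjusted p = 6.22e-09) for SLC51A and -2.08 ± 0.30 (SE; adjusted p = 6.5e-06) for SLC51B (cyclosporin A minus nefazodone). No explanation of these differences was tested.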

How the results depend on the processing

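The counts differed most with which arrays entered and with whether genes or probe sets were counted. In the fit of the 6 compared arrays alone 4786 genes passed, 2236 higher and 2550 lower. Tested singly, 13054 of 41091 probe sets passed, 6016 higher and 7038 lower, with 905 at least 2-fold higher and 1070 at least 2-fold lower. More features were tested there, so the count rose although the share that passed was below the 37% of genes. In the same setting 14217 probe sets passed for cyclosporin A against control, 16769 for nefazodone against control and 15010 for the drugs with the mix. The interaction then passed in 7027 probe sets, 3419 higher and 3608 lower, with 377 at least 2-fold higher. Centring the arrays gave 3482 genes with a higher and 1765 with a lower interaction (2082 and 2356 without it), 328 of the former at least 2-fold, and the mean of a gene's probe sets gave 113 with an interaction at least 2-fold higher; the cause was not tested. Leaving out single arrays gave 6182 to 7802 genes past the threshold (2904 to 3833 higher, 3278 to 3969 lower), and 159 to 300 for the 2-fold higher interaction, the latter without the first cyclosporin A array. The share of higher genes among those past the threshold was 47.6%, 38.2% with centring and 52.9% with quantile normalization.

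Of 165 genes named, 108 kept direction and side of the threshold in every setting tried. In the fit of the compared arrays alone 8 of the 165 no longer passed. Another probe set turned the sign of ABCC5 (-0.25), ACADSB (-0.062), ARG1 (-0.10), ASNS (0.23), ATF5 (-0.04), BUB1 (0.12), CANX (-0.19), CYP3A4 (0.13), FBXO30 (0.18), FOXA2 (0.05), HK2 (0.071), HSPA5 (0.81), KRT19 (0.15), LARS1 (0.66), NDUFA6 (0.083), PAX8-AS1 (-0.006), PLIN2 (0.057), PPP3CC (0.17), RCAN1 (0.12), RXRA (-0.12), SLC1A4 (0.32), SLC30A1 (0.016) and XBP1 (0.012). In 22 further genes the probe set farthest from the one used kept the sign but did not pass. The mean of all probe sets turned ASNS (0.055), FBXO30 (0.017) and HSPA5 (0.33). Among genes that had not passed, quantile normalization and centring turned ABCB11 (-0.007 and -0.021), FGF19 (-0.023 and -0.039) and SLC51A (-0.018 and -0.037), and leaving out single arrays turned ABCB11, CYP1A1, FGF19, PSMA4 and SLC51A, with ranges of -0.090 to 0.19, -0.27 to 0.041, -0.045 to 0.11, -0.135 to 0.047 and -0.17 to 0.16. Of 96 counts of list members, 53 stayed within 1.5 times in every setting.

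With the replicate number as a block 7473 genes passed, 7213 of them shared with the 7313 without it, and all 165 named genes kept their call. In 1 of 3 cases a cyclosporin A array correlated best, over all genes, with the nefazodone array of its number, and the numbers are not used as pairs. The complement and coagulation and the plasma carrier lists nevertheless kept the same replicate order in every HepaRG group, and the reason was not tested. Both treatments rest on 3 arrays, levels under 4.273 lie among the dimmest 1 in 3 genes and understate differences, and probe sets that bind similar sequences cannot assign signal to 1 gene.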
